A study of Homo sapiens with 6 samples.

Results

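The EGR and other immediate early genes examined here are EGR1, EGR2, EGR3, IER2, IER3, IER5, KLF4, KLF6, BTG2 and ZFP36. The regions described are all those that the authors' deposited tables name for one of these 10 genes, at any distance, each region counted once. These were 260 of the 226920 regions in the tables, and every one was 501 bases wide. Openness was read by ATAC-seq, which cuts and tags exposed DNA with the enzyme Tn5, in A375, an established human melanoma line that carries an activating BRAF mutation. Cells treated with recombinant HMGA1, an AT-hook protein of chromatin, for 2 h or for 18 h were set against mock cells, which the labels call untreated, with 2 libraries per group. All cells were frozen in medium with DMSO, thawed and treated with DNase I before tagging. The labels give no amount of protein and no buffer for mock cells. They name the libraries biological replicates but not what separates them. Any p-value here therefore rests on the variation among these libraries, which may be technical. For most regions the standard error followed the mean signal closely, so a p-value does not measure the spread at that region alone. At the starts of cell type markers, a region within 2 kb was listed for 4 of 8 melanocyte lineage genes (MITF, SOX10, PMEL and S100B, but not MLANA, TYR, TYRP1 or DCT) and for 4 of 4 genes of undifferentiated melanoma. It was listed for 2 of 4 keratinocyte, 3 of 4 fibroblast, 1 of 3 endothelial and 1 of 3 immune markers. The mean signals ran from 63.8 to 694 normalised reads at the lineage genes from 17.3 (AXL) to 376 at the undifferentiated melanoma genes, and from 26.9 to 365 at the keratinocyte, fibroblast, endothelial and immune genes that had one. The part of other cells in the results was not tested.

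Immediate early genes are switched on within minutes of a growth factor or stress signal, without new protein synthesis, because the factors that read the signal already sit at their promoters. Serum response factor binds the CArG box of the serum response element. Its ETS-family partners, which are targets of the ERK kinases, join it through an ETS site of their own. The products then shape the second wave of transcription and the shut-down of the first. EGR1, EGR2 and EGR3 are zinc-finger transcription factors that bind a GC-rich site, KLF4 and KLF6 are zinc-finger factors of the Krüppel-like family, and IER2, IER3 and IER5 are small inducible proteins. BTG2 and ZFP36 (tristetraprolin) limit growth and messenger RNA lifetime, both through the deadenylation machinery.

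CArG boxes and GC-rich EGR sites occur among these promoters. The 4 sequences shown place these sites relative to the accessible regions whose values follow. RefSeq promoter windows on GRCh38.p14 were matched for 8 of the 10 genes, all but EGR3 and IER3, and the 250 bases before the start are given 5′ to 3′. In the first pair the capitals mark CArG boxes. In the second pair they mark the EGR site, searched as GCGTGGGCG or GCGGGGGCG on both strands.
EGR1 (chr5:138465229-138465478, plus strand): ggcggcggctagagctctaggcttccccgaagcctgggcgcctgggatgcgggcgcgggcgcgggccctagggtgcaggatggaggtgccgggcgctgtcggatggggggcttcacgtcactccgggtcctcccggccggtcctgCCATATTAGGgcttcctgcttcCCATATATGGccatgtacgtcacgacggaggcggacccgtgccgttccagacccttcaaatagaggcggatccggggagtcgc
EGR2 (chr10:62816367-62816616, minus strand): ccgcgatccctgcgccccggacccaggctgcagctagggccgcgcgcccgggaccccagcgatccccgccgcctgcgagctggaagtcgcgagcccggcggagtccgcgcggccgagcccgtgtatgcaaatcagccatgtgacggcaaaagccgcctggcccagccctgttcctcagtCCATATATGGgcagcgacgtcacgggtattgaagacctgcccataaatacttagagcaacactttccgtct
BTG2 (chr1:203305269-203305518, plus strand): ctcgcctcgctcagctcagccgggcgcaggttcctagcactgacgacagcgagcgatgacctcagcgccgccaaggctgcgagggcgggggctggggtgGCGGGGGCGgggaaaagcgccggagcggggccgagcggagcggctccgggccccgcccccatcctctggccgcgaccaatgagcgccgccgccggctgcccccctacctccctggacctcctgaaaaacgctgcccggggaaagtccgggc
KLF6 (chr10:3785210-3785459, minus strand): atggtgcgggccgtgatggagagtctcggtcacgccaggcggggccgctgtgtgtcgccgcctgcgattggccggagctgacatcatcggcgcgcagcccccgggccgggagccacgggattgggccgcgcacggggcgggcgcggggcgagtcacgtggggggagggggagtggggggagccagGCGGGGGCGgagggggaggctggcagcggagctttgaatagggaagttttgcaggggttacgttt
The CArG box occurred in 2 of the 8 member promoters and in 1.29% of the 35116 RefSeq promoter windows of 300 bases. EGR1 held 2 of them, from -105 to -96 and from -83 to -74 relative to the start, and EGR2 held 1, from -71 to -62. The EGR2 box lay inside the accessible region at that start, whereas both EGR1 boxes lay outside the deposited region, which the authors place 0.217 kb upstream of the start. The EGR site occurred in BTG2 and KLF6, inside their start regions in both genes, and in 5.77% of all windows. An ETS site, searched only as CCGGAA, was found in the promoters of IER2 and IER5 (17.2% of all windows). Shorter forms of the ETS site were not searched, so the other promoters may hold them. A TEAD site, GGAATG, was found in the promoter of ZFP36 (14.0%). The full CRE TGACGTCA (1.85% of all windows), the AP-1 site TGANTCA (7.71%) and a run of 8 or more A or T (36.9%) were found in 0 of the 8 promoters. The member promoters held 63.7% to 74.7% G and C, against a median of 58.7% over all windows. These matches describe letters and do not show that a factor was bound.

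At their starts 9 of the 10 genes were more accessible than the middle of all genes, and the order of the levels was EGR1, IER5, IER2, BTG2, ZFP36, KLF4, EGR2, IER3, KLF6 and EGR3. The mean signal over the 6 libraries, as a normalised read count per 501-base region in the authors' deposited table, was 1237 at EGR1, 1191 at IER5 and 1043 at IER2. These values lay at the 98.3, 97.9 and 96.1 percentile of the 14599 start regions of all gene names. The nearest IER2 region lay 1.17 kb downstream of the start, inside the gene. BTG2, ZFP36, KLF4, EGR2, IER3 and KLF6 followed in the authors' deposited table with 654, 591, 529, 520.5, 504 and 382. EGR3, at 159, was the only one of the 10 below the middle of all gene starts (32.2 percentile). No value per library was at hand, so the spread of these levels is unknown and neighbours in this order cannot be called different.

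The comparison of 2 h with mock asked what happened at these genes soon after the protein was added. All 10 start regions had a log2 fold change below 0, with a median of -0.17 and a range of -0.46 to -0.12, but none was called. Centred on the median of all tested regions, the 10 starts were still below 0 with a median of -0.11, and centred in bins of like signal with a median of -0.07. Of all 11745 tested start regions, 86.9% were below 0 as well, with a median of -0.11 and quartiles of -0.17 and -0.05. These are values without centring. That median also lay below the -0.06 of all tested regions, so the median of all starts stays below 0 under the first centring too. The members therefore shared their direction with start regions in general. Called here means an adjusted p under 0.05 in the authors' deposited table (DESeq2, Wald test, Benjamini-Hochberg adjustment over all tested regions), and 0.179% of all start regions were called. At an unadjusted p under 0.05, 4 of the 10 were lower, against 7.27% of all start regions. Both figures use the deposited values without centring, and start regions of like signal were not compared. Centred in bins of like signal, the fold changes of these 4 ran from -0.40 (EGR3) to -0.10 (BTG2). A lower count in such a bulk library cannot tell fewer cells with an open region from less opening in each cell.

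Those 4 were ZFP36, IER5, EGR3 and BTG2. ZFP36 encodes a protein that binds AU-rich elements and sends messenger RNAs of cytokines and of immediate early genes to decay. Its start region (chromosome 19, 39406630 to 39407131) had group levels of 653, 528 and 593 normalised reads in mock, 2 h and 18 h cells, as implied by the deposited mean and fold changes. The authors' deposited table gave it -0.31 ± 0.10 (SE) for 2 h against mock, with an adjusted p of 0.120 (DESeq2) and a 95% interval of -0.51 to -0.11. Its second strong region, 2.83 kb upstream, stood at -0.25, so both tested ZFP36 regions were below mock. IER5, which regulates heat shock factor through a phosphatase, had implied levels of 1258, 1095 and 1219.9 in mock, 2 h and 18 h cells at its start. Its fold change at 2 h was -0.20 ± 0.08 (adjusted p = 0.241, DESeq2) in the authors' deposited table. EGR3 had the lowest value of any member start, -0.46 ± 0.19 (adjusted p = 0.314, DESeq2), in the authors' deposited table, and the widest interval, -0.83 to -0.08. The other tested EGR3 regions within 1 kb did not share this low value. The one 0.961 kb from the start, with a higher mean signal of 261, had -0.07, and the one at 0.438 kb had 0.04. The BTG2 start, which also touches the span of the divergent BTG2-DT, had implied levels of 713, 621 and 627 in mock, 2 h and 18 h cells. BTG2 stood at -0.20 ± 0.10 (adjusted p = 0.470, DESeq2) at 2 h in the authors' deposited table.

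The intervals of the other 6 starts all reached past 0. EGR1, the best-known immediate early factor, had implied levels of 1312, 1205 and 1192 in mock, 2 h and 18 h cells at its start region (chromosome 5, 138464772 to 138465273). Its log2 fold change at 2 h was -0.12 ± 0.08, with a 95% interval of -0.28 to 0.04, in the authors' deposited table. EGR2, whose product drives myelination in Schwann cells, had -0.14 ± 0.11, with an interval of -0.36 to 0.07, in the authors' deposited table. KLF4, one of the reprogramming factors, had -0.21 ± 0.11, and KLF6 -0.14 ± 0.12, in the authors' deposited table. IER2 and IER3, a survival factor of stressed cells, had -0.14 ± 0.08 and -0.12 ± 0.11 there. The highest upper bound among the 10 intervals was 0.10, at KLF6.

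**Figure D1:**
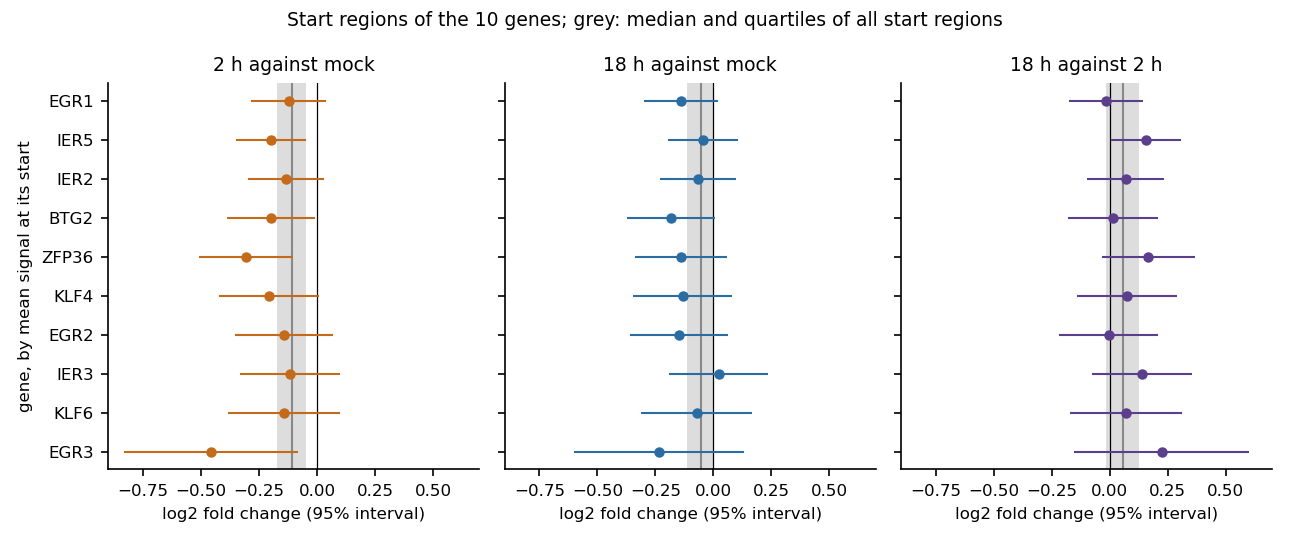
Log2 fold change of the start region of each gene (x axis) with its 95% interval from the authors' standard error, for 2 h against mock, 18 h against mock and 18 h against 2 h; genes run from the highest to the lowest mean signal. Grey bands and lines are the quartiles and the median of the tested start regions of all gene names: all 10 points lie below 0 at 2 h, as do 86.9% of all start regions.

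Over all distances, 3 of the 127 member regions tested at 2 h were called, all lower than mock. This is a share of 2.36%, against 1.28% of all 86137 tested regions called in either direction and 0.421% called lower. The number is small, and the members' median log2 fold change of -0.06 equalled that of all tested regions (-0.06) at 2 decimals. The other 133 of the 260 regions had a mean signal under the authors' limit and were not tested.

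A neighbouring pair of the 3 called regions lay downstream of IER2, a nuclear protein induced by serum, between the end of that gene and CACNA1A. The region 13.3 kb from the IER2 start (chromosome 19, 13163712 to 13164213) had implied levels of 1017, 775 and 975 normalised reads in mock, 2 h and 18 h cells. It fell by 0.39 ± 0.09 (adjusted p = 0.00218, DESeq2) at 2 h in the authors' deposited table, a 1.31-fold decrease. The region at 12.3 kb (chromosome 19, 13162743 to 13163244) had implied levels of 971, 767 and 857 in mock, 2 h and 18 h cells. It fell by 0.34 ± 0.09 (adjusted p = 0.0219, DESeq2) at 2 h in the authors' deposited table. These are among the strongest IER2 regions, at mean signals of 922 and 865. The stronger region 17.0 kb from the start had -0.07 ± 0.08 at 2 h in the authors' deposited table and was not called. The decrease was therefore called at 2 neighbouring regions. It was not called at 17.0 kb or at the region nearest the IER2 start, 1.17 kb downstream of it. The difference between these regions was not tested. Of the other IER genes, IER3 and IER5 had no called region at 2 h among 9 and 17 tested, with gene medians of -0.14 and 0.01.

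The third called region lay 218 kb upstream of KLF4, inside the span of the non-coding LOC105376207 (chromosome 9, 107707305 to 107707806). Its implied levels were 557, 427 and 458 normalised reads in mock, 2 h and 18 h cells. It fell by 0.38 ± 0.11 at 2 h in the authors' deposited table (DESeq2), with an adjusted p of 0.0490, just inside the threshold. Just outside it was a KLF6 region 269 kb downstream of the start, with -0.43 ± 0.14 (adjusted p = 0.0934, DESeq2) in the authors' deposited table. When the fold changes were centred on the median of all tested regions, the 13.3 kb IER2 region kept its call (adjusted p = 0.0159, Wald test). Those at IER2 12.3 kb and KLF4 did not. Centred in bins of like signal, the 13.3 kb IER2 region was also just inside the threshold (adjusted p = 0.0447, Wald test).

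**Figure D2:**
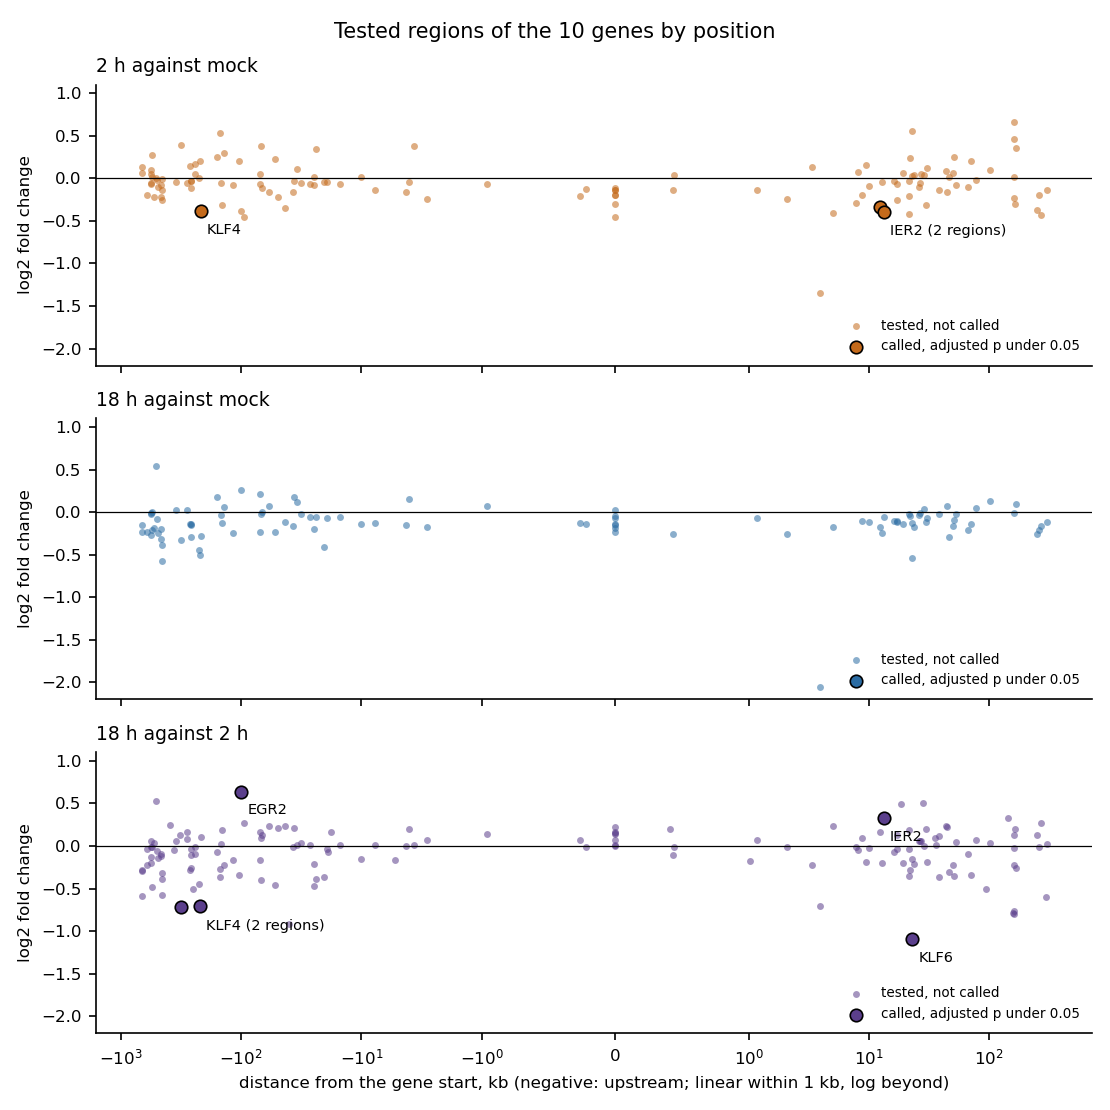
Log2 fold change (y axis) of every tested region of the 10 genes against its distance from the gene start in kb, upstream negative (x axis, linear within 1 kb and logarithmic beyond), for each comparison. Large outlined points are called at an adjusted p under 0.05. Among all tested regions the called share was lower within 10 kb of a start than beyond it in each comparison. Of the member regions, 3 were called at 2 h against mock, 0 at 18 h against mock and 5 at 18 h against 2 h, none of them within 10 kb of a start.

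The comparison of 18 h with mock asked what was present after the longer exposure. Of 104 member regions tested, 0 were called (DESeq2, the authors' deposited table), against 0.121% of the 55341 regions tested. With no adjustment, 9 (8.65%) had a p under 0.05 and 8 of these were lower, against 7.89% of all tested regions. The median over the 104 was -0.13 and that of all tested regions -0.07, and 84 of the 104 lay below 0 (80.8%, against 69.5% of all). Start regions had a median of -0.14 among the members and -0.05 over all gene names, and 9 of the 10 were below 0, IER3 being the exception at 0.02. Under both centrings 7 of the 10 were below 0, with medians of -0.07 and -0.06. The comparisons with mock share their mock libraries, so a like sign in both is not a second observation.

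By gene, the 18 h medians over tested regions ran from -0.16 for KLF6 (21 regions) to 0.03 for EGR2 (4 regions). KLF4, which has the largest set of regions, had 28 of its 31 tested regions below 0 with a median of -0.15. Among the 104 tested, the region with the smallest p lay 456 kb upstream of KLF6 (chromosome 10, 4241716 to 4242217), within LINC00702. The authors' deposited table gave it -0.57 ± 0.16 with an adjusted p of 0.0821 (DESeq2), and it was not called. All 6 regions tested at 18 h in the run of 12 KLF6 regions between 456 and 499 kb upstream lay below 0, with a median of -0.28. These regions are neighbours and not independent of each other.

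**Figure D3:**
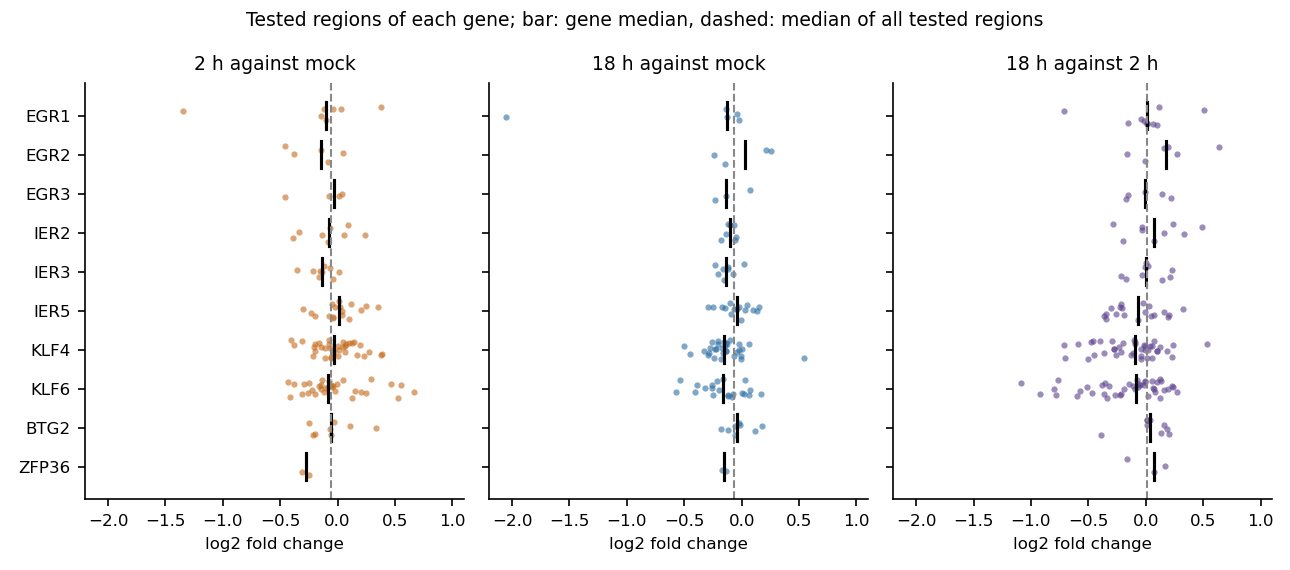
Log2 fold changes (x axis) of all tested regions of each gene (rows), with the gene's median as a bar and the median of all tested regions as a dashed line, for each comparison. At 18 h against mock 84 of 104 points lie below 0; the lowest point of both comparisons with mock is the EGR1 region 3.92 kb downstream of its start.

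The comparison of 18 h with 2 h tests the difference between both exposures directly. Here 5 of 152 member regions were called (3.29%), close to the 3.48% of all 108134 tested regions. Of the 152, 3 were called lower at 18 h than at 2 h, against 2.98% of all tested regions. A further 2 of the 152 were called higher, against 0.498% of all. The remaining 108 member regions were tested in no comparison. No start region was called, and the members' start median of 0.07 was near that of all start regions, 0.06 (1 of the 10 had an unadjusted p under 0.05, by DESeq2). The smallest unadjusted p at a start was that of IER5, whose fold change was 0.16 ± 0.08 (adjusted p = 0.405, DESeq2) as the authors' deposited table gives it.

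The lower regions belonged to the Krüppel-like genes, which also had the most regions tested here. KLF4 had 2 called lower of 40 tested (5%) and KLF6 had 1 of 42 (2.38%), against 2.98% of all tested regions. KLF6, which acts as a growth suppressor in several tissues, had the member region with the largest called change, 23.0 kb downstream of its start within LOC105376363 (chromosome 10, 3761816 to 3762317). Its implied levels were 105, 153 and 72.1 normalised reads in mock, 2 h and 18 h cells, so the 2 h group was the highest and the 18 h group the lowest. The authors' deposited table gave -1.09 ± 0.24 for 18 h against 2 h (adjusted p = 0.000681, DESeq2), a 2.13-fold lower level at 18 h. Against mock, the authors' deposited table gave 0.55 ± 0.23 at 2 h and -0.54 ± 0.25 at 18 h for this region, and neither was called.

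At KLF4 both called regions lay far upstream in a gene-poor stretch, with ACTL7B 1047 kb or more away as the next protein-coding gene on that side. The one at 222 kb (chromosome 9, 107711463 to 107711964) had implied levels of 205, 235 and 144 in mock, 2 h and 18 h cells. For 18 h against 2 h the authors' deposited table gave -0.70 ± 0.18 (adjusted p = 0.00394, DESeq2). That at 317 kb (chromosome 9, 107807108 to 107807609) had implied levels of 120.3, 158 and 96.0 in mock, 2 h and 18 h cells. Its value for 18 h against 2 h was -0.72 ± 0.21 (adjusted p = 0.0293, DESeq2) in the authors' deposited table. The closest region to that at 222 kb, at 223 kb (chromosome 9, 107712380 to 107712881), had -0.45 ± 0.21 for 18 h against 2 h in the authors' deposited table. It was not called (adjusted p = 0.319, DESeq2). The KLF4 region at 218 kb was called lower at 2 h against mock, and it had 0.10 ± 0.11 for 18 h against 2 h in the authors' deposited table. The regions at 218 and 222 kb thus differed in which comparison they were called in, although the difference between them was not tested.

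The regions that were higher at 18 h than at 2 h belonged to EGR2 and IER2. The EGR2 region lay 99.8 kb upstream of the start within LOC107984012 (chromosome 10, 62916197 to 62916698), and had implied levels of 239, 184 and 286 normalised reads in mock, 2 h and 18 h cells. Its value for 18 h against 2 h was 0.64 ± 0.16 (adjusted p = 0.00494, DESeq2) in the authors' deposited table. Its values against mock there, -0.38 ± 0.16 at 2 h and 0.26 ± 0.16 at 18 h, were not called. The IER2 region at 13.3 kb, called lower at 2 h, had 0.33 ± 0.09 for 18 h against 2 h (adjusted p = 0.00848, DESeq2) in the authors' deposited table. At 18 h it stood at -0.06 ± 0.09 against mock in the authors' deposited table. This was the one member region called in both comparisons that involve the 2 h libraries. Because those libraries are shared, the later call is not a separate observation.

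**Figure D4:**
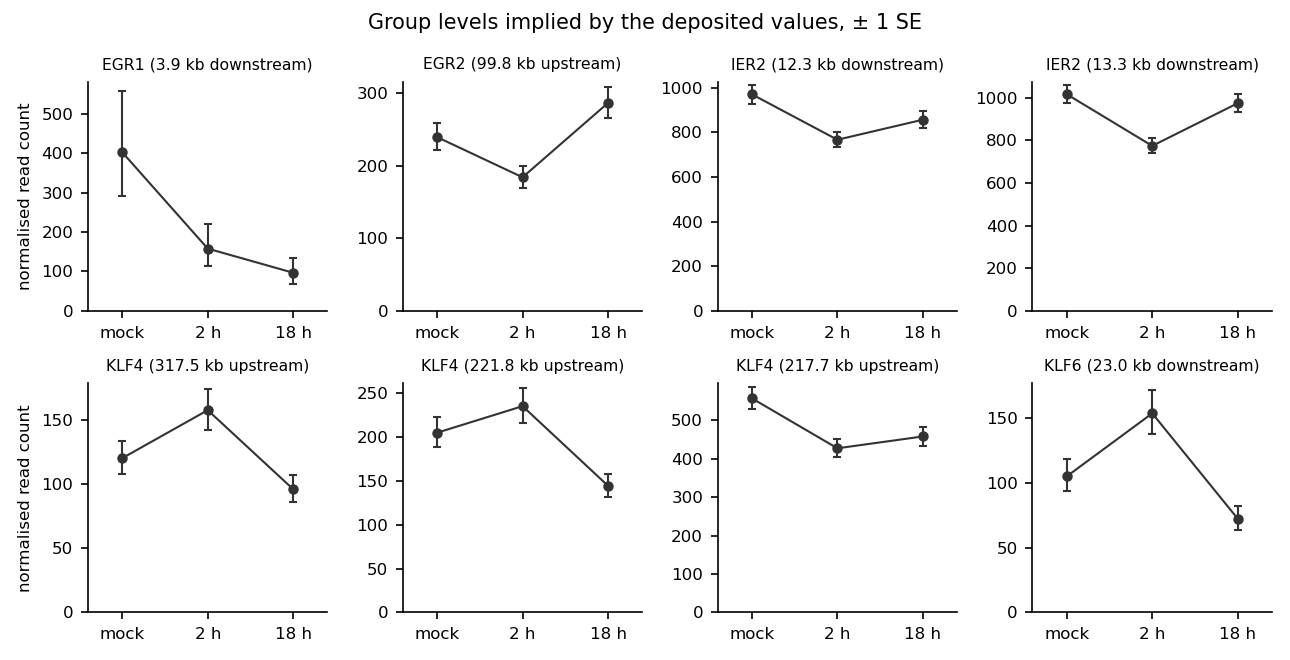
Group levels (y axis, normalised read count from 0) in mock, 2 h and 18 h cells, as implied by the deposited mean and fold changes. Shown are the 7 regions called in any comparison and the EGR1 region 3.92 kb downstream of its start. Bars are 1 SE of each group level, derived from the authors' standard errors of the comparisons. They do not show the spread of libraries within a group, for which no values were at hand. The IER2 and EGR2 regions and the KLF4 region at 218 kb are lowest at 2 h, the KLF6 region and the KLF4 regions at 222 and 317 kb are highest at 2 h, and EGR1 has by far the widest bars.

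The largest fold changes against mock of any tested member region were at EGR1, and they were not called. The region began 0.104 kb past the RefSeq end of the gene, 3.92 kb from its start (chromosome 5, 138469407 to 138469908), and had implied levels of 402, 158 and 96.6 normalised reads in mock, 2 h and 18 h cells. The authors' deposited table gave it -1.35 ± 0.67 at 2 h (adjusted p = 0.473, DESeq2) and -2.06 ± 0.67 at 18 h (adjusted p = 0.237, DESeq2) against mock. Its SE was 3.97 times the median of the 11670 tested regions within 20% of its mean signal, and none of the others had an SE as high. Over all 86137 regions tested at 2 h, 3 had an SE at least as high. The intervals against mock ran from -2.66 to -0.04 at 2 h and from -3.37 to -0.74 at 18 h. The SE was 0.67 in all 3 comparisons, and which library or group was spread apart cannot be told from the tables. The next EGR1 region, 7.24 kb downstream of the start and named after its values were seen, was under the signal limit and untested, with a mean signal of 25.3 and implied levels of 43.8, 20.6 and 11.4 in mock, 2 h and 18 h cells. The authors' deposited table gave it -1.09 ± 0.46 at 2 h and -1.94 ± 0.50 at 18 h against mock, with unadjusted p-values of 0.0181 and 9.41e-05 (DESeq2) and no adjusted test. When the adjustment covered all regions with no filter on mean signal, 0 member regions were called at 18 h against mock. For the other member regions tested at 2 h the SE followed the mean signal closely.

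**Figure D5:**
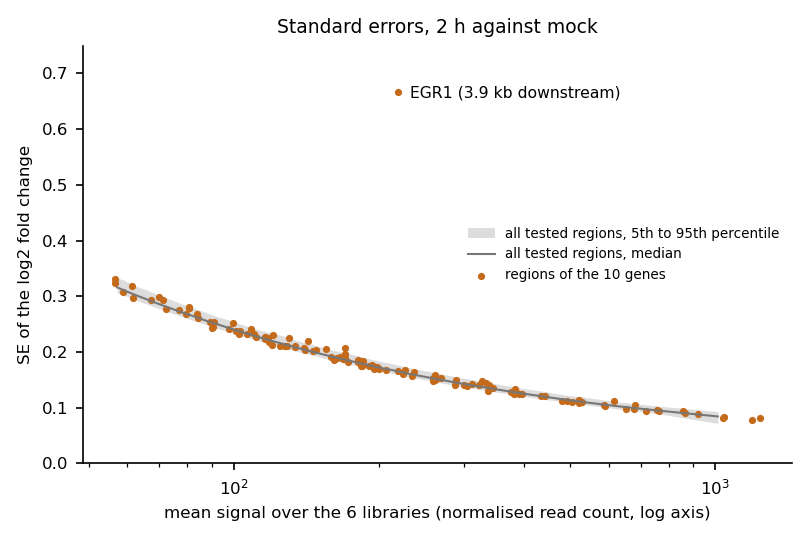
Standard error of the log2 fold change (y axis) against the mean signal over the 6 libraries (x axis, log scale) for 2 h against mock, with the regions of the 10 genes as points and all tested regions as a median line and a band from the 5th to the 95th percentile. The EGR1 region at 219 normalised reads lies far above the band at 0.67, and the other member regions lie along it.

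The number of regions per gene varied widely. KLF4, KLF6 and IER5 had 71, 60 and 44 regions, reaching out to 679, 499 and 187 kb. EGR1 had 20 regions, IER3 and BTG2 had 15 each, IER2 had 14, EGR2 had 11, EGR3 had 6 and ZFP36 had 4. BTG2, ZFP36, EGR3, EGR1, IER3 and IER5 had no called region, with 9, 3, 5, 10, 9 and 19 regions tested in any comparison. Of all tested regions, 1.28% were called at 2 h against mock, 0.121% at 18 h against mock and 3.48% at 18 h against 2 h. With so few regions tested, the lack of calls does not set these genes apart. The smallest unadjusted p of BTG2 at 2 h was at its strongest region, 21.8 kb downstream, with -0.21 ± 0.09 in the authors' deposited table (adjusted p = 0.375, DESeq2).

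By distance, the 12 member regions tested within 1 kb of a start had a median of -0.14 at 2 h against mock, beside -0.11 for all tested regions in that class. In the class from 1 to 10 kb the 14 tested had -0.15 beside -0.05 for all, and from 10 to 100 kb the 53 tested had -0.05 beside -0.04. The 48 tested beyond 100 kb had -0.03 beside -0.03. At 18 h against 2 h the 60 tested beyond 100 kb, most of them regions of KLF4 and KLF6, had a median of -0.10 beside -0.01, and 42 of the 60 lay below 0. Regions of 1 gene share their surroundings, so these medians describe few loci. No member region within 10 kb was called, but calls there were rarer among all tested regions too. At 2 h against mock their called share was 0.163% within 1 kb and 0.864% from 1 to 10 kb. It was 1.43% from 10 to 100 kb and 1.85% beyond. At 18 h against 2 h these shares were 0.404%, 2.57%, 3.91% and 4.64%. With so few member regions tested near starts, the lack of calls does not set these genes apart.

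Genes that work with or beside the members were read from lists chosen with earlier results of these data known. The balance of their 13 calls at 2 h turned with the scaling: 4 were higher and 9 lower as deposited, against 6 and 3 when centred on the median of all tested regions and 9 and 2 when centred in bins of like signal. The directions at 2 h given next are those of the deposited values. The EGR partners and the serum response axis (EGR4, NAB1, NAB2, SRF, MRTFA, MRTFB, ELK1, ELK3, ELK4, WT1 and SP1) had 0 higher and 1 lower of 67 tested regions at 2 h (1.49% called, against 1.28% of all), with a median of -0.09. That region, 7.17 kb from the start of SP1, a factor that binds GC boxes, fell by 0.47 ± 0.13 (adjusted p = 0.0377, DESeq2) at 2 h in the authors' deposited table. The same region had 0.58 ± 0.13 for 18 h against 2 h (adjusted p = 0.000957, DESeq2) in the authors' deposited table, the only call of 85 tested there (1.18%, against 3.48% of all). Both SP1 values share the 2 h libraries and are not separate observations. EGR4 and the corepressor genes NAB1 and NAB2, which hold EGR factors in check, had no called region.

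The 12 other Krüppel-like genes had 2 higher regions, at KLF7, and 4 lower ones, at KLF13, of 140 tested at 2 h (4.29% called, against 1.28% of all). Their median was -0.08. The most significant KLF7 region rose by 0.59 ± 0.13 (adjusted p = 0.00136, DESeq2) and that of KLF13 fell by 0.39 ± 0.09 (adjusted p = 0.00667, DESeq2) in the authors' deposited table. Of 173 tested at 18 h against 2 h, 1 was higher and 10, at 5 genes, were lower (6.36% called, against 3.48% of all). KLF5 led with -0.67 ± 0.14 (adjusted p = 0.000179, DESeq2) in the authors' deposited table.

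Among the relatives of IER5, BTG2 and ZFP36, 2 of 99 regions were lower and 0 higher at 2 h (2.02% called, against 1.28% of all). They belonged to ZFP36L2, a decay factor like ZFP36, at -0.35 ± 0.09, and TOB1, an antiproliferative protein like BTG2, at -0.31 ± 0.08, in the authors' deposited table. Of 122 tested at 18 h against 2 h, 1 was higher and 3 were lower (3.28% called, close to the 3.48% of all). A further 19 genes of the immediate early class, among them NR4A1, DUSP1, ATF3 and PLK2, had 227 tested regions at 2 h, with 2 called higher and 2 called lower (1.76%, against 1.28% of all). The higher ones were at PLK2, a stress-induced kinase, whose region 200.1 kb from the start rose by 1.03 ± 0.18 (adjusted p = 1.29e-05, DESeq2) in the authors' deposited table. At 18 h against 2 h, 1 of 278 was higher and 15, at 8 genes, were lower (5.76% called in either direction, against 3.48% of all). ATF3, a stress-induced factor, had -0.46 ± 0.10 (adjusted p = 0.000391, DESeq2) there in the authors' deposited table. At 18 h against mock, 0 regions of these 4 lists passed the adjusted test (DESeq2). With no adjustment, a p under 0.05 was reached by 7.89% of all tested regions. It was reached by 2 of 45 regions of the EGR partners (4.44%) and 5 of 96 of the Krüppel-like genes (5.21%), and by 12 of 73 of the relatives (16.4%) and 30 of 146 of the other immediate early genes (20.5%).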

How the data were processed

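Accessibility was measured in 6 ATAC-seq libraries. The submitters' processing notes name bcl2fastq 2.17, DESeq2 without a version, and the build hg38. The aligner, peak caller, read counter and any shift of reads for Tn5 are not given in the sources used here. All 3 deposited tables hold 0 columns of 1 library, so the depth of each library is unknown. Per the file headers they give the mean signal of a region over all libraries (a normalised read count), the authors' log2 fold change with its standard error (SE), the Wald statistic as a score, and the deposited p-value with its adjusted p. Subtracting the deposited 2 h value from the 18 h value gave the third comparison to within 1.02e-14, so 1 fit gave all 3. Regions under the authors' limit of mean signal (56.2 at 2 h against mock, 101 at 18 h against mock, 41.7 at 18 h against 2 h) carry an adjusted p of 1 and were counted as not tested.

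Repeat names of a region were removed by their numeric suffix. The start region is the one nearest the start, for all gene names within 2 kb, with ties going to the higher signal. Intervals are the log2 fold change with its SE times the normal 95% quantile. Implied group levels split the mean signal by both fold changes with mock, taking the 3 group means to average to it; the SE of a group follows from the 3 deposited SEs. Upstream and downstream follow the gene's strand. Coordinates are as the files give them and may differ by 1 base. Gene spans and promoters are from RefSeq (GRCh38.p14), in which all 10 symbols matched; MRTFA and MRTFB were matched by older names. The count test planned for values per library could not be used. Python 3.11.15, pandas 2.3.3 and scipy 1.17.1 were used, and the centring and adjustment were tested on simulated data. Named regions were the 10 start regions, every called region, the tested region with the smallest p of a gene where none was called, its strongest region and, of related genes, the called regions with the smallest p. The IER2 region at 17.0 kb, the EGR1 region at 7.24 kb and the KLF6 runs were chosen after their values were seen. So were the KLF4 region at 223 kb and the EGR3 regions beside its start region. The genes and lists were chosen with earlier results of these data known.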

Additional observations from a re-analysis of the deposited data

Results flagged for a closer look

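In 5 regions the change at 18 h differed from the change at 2 h by the deposited test of 18 h against 2 h (DESeq2), with the values of the authors' deposited table. The log2 difference was -1.09 at KLF6 23.0 kb downstream (adjusted p = 0.000681), where the values against mock were 0.55 at 2 h and -0.54 at 18 h. It was -0.70 (adjusted p = 0.00394) at KLF4 222 kb upstream, with 0.20 at 2 h and -0.51 at 18 h against mock. At KLF4 317 kb upstream it was -0.72 (adjusted p = 0.0293), with 0.39 at 2 h and -0.33 at 18 h against mock. The EGR2 region 99.8 kb upstream had 0.64 (adjusted p = 0.00494), with -0.38 at 2 h and 0.26 at 18 h against mock. The IER2 region at 13.3 kb had 0.33 (adjusted p = 0.00848), with -0.39 at 2 h and -0.06 at 18 h against mock. The IER2 region alone was also called against mock, at 2 h, in a comparison that shares the 2 h libraries.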

How the results depend on the processing

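The 3 member calls at 2 h became 1, the IER2 region at 13.3 kb, with an adjusted p under 0.01, with centring on the median tested region, with centring in each of 20 signal bins and with no filter on mean signal, and 0 within 10 kb of a start. After these centrings the IER2 region at 12.3 kb stood at -0.28 and -0.25 and that of KLF4 at -0.32 and -0.29. At 18 h against mock the 0 calls became 1, at KLF6 456 kb upstream, with an adjusted p under 0.1. They stayed at 0 with no filter on mean signal. The 5 calls of 18 h against 2 h became 3 within 100 kb and 0 within 10 kb, and all 5 were kept under both centrings. The 13 calls of the related genes at 2 h became 4 with an adjusted p under 0.01, 7 with no filter and 3 within 10 kb, and their 32 calls of 18 h against 2 h became 14 with an adjusted p under 0.01, 19 within 100 kb and 7 within 10 kb. Their balance at 2 h turned, with 4 higher and 9 lower as deposited, 6 and 3 centred on the median, and 9 and 2 centred in signal bins. The count of member starts below 0 was 10 at 2 h under both centrings, with medians of -0.11 and -0.07 against -0.17 as deposited. The starts of all gene names were not counted after centring. At 18 h it was 7 under both, with medians of -0.07 and -0.06, against 9 and -0.14 as deposited. Leaving out the EGR1 region with the high SE, an alternative chosen after seeing the data, left the member medians at -0.06 (2 h) and -0.12 (18 h) against mock. Leaving out libraries and other count models were not run, since the tables hold no value per library. No paired analysis was possible because the tables hold no value per library, although the labels number the libraries 1 and 2 in each group.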

Other observations

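A run of 4 KLF6 regions between 159 and 162 kb downstream of the start held none that was called, and it was picked after its values were seen. In the authors' deposited table, both of its regions tested at 2 h were above mock, at 0.66 and 0.46, and 3 of the 4 tested at 18 h against 2 h stood between -0.80 and -0.76, with a smallest adjusted p of 0.0946 (DESeq2). These regions are neighbours and not independent of each other. The strongest regions of IER3, 7.69 kb upstream with a mean signal of 857, and of BTG2, 21.8 kb downstream with 717, were not those at the start, and the authors' deposited table gave them -0.14 and -0.21 at 2 h against mock, neither of them called.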
